A study of Mus musculus with 2 samples.

Results

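The 44 genes described here are immediate-early and stress-response genes, and all 44 were found by symbol among the 25827 features of both count matrices. They were taken from a written list of names, and no measured value entered the rule. They comprise 8 AP-1 and ATF family transcription factors, 6 EGR and NR4A factors, 8 KLF, C/EBP and other factors, 7 feedback regulators of kinase and cytokine signalling, 9 early-response, growth-arrest and survival genes, 3 heat shock genes, and 3 genes of cytoskeletal and matrix signalling.

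Immediate-early genes are transcribed within minutes of a stimulus, before any new protein has to be made, when kinase signalling acts on factors such as SRF, CREB and JUN that are already present in the cell. Many of their products are transcription factors that pass the signal on, and others, such as the phosphatase DUSP1 and the RNA-binding protein ZFP36, shut the signal down. In vascular cells and macrophages they respond to flow, cytokines and injury, and they are also known to be switched on when tissue is dissociated and sorted, as it was here.

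The study sequenced RNA of single cells, with the 10x Genomics 3′ v3.1 chemistry, after sorting from whole brain of adult mice. 1 library came from IL34LacZ/+ mice, heterozygous for a lacZ allele of Il34, and 1 from IL34LacZ/LacZ mice, homozygous for it, so the mice of both groups carry the allele and no wild-type library was analysed here. The sorted populations were mural cells with fibroblasts (CD13+ and/or CD140a+O4-), endothelial cells (CD31+), astrocytes (ACSA-2+), microglia (CD11b+F4/80hi) and border-associated macrophages, or BAMs (CD11bhiF4/80+). The sources used here do not give how many animals stand behind a library, their sex, how the sorted cells were mixed, or which stretch of Il34 the allele removes.

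Each genotype has a single library, so no difference between genotypes has a replicate check, none could be tested and p-values are absent. Levels are UMIs (unique molecular identifiers, 1 per captured molecule) summed over the cells of a class in a library and scaled to 1000000 UMIs of that class (CPM). Pairs of values give the heterozygous library first. Ratios are homozygous over heterozygous, with exact 95% intervals that cover counting error only. A gene was called higher or lower when it held at least 100 UMIs over both libraries in a class ("measured"), differed at least 1.5-fold and had an interval without 1. Differences between animals or between sorts cannot be told apart from the genotype.

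The libraries held 17168 and 18858 barcodes with 87394167 and 95505407 UMIs, and 8208 and 9619 cells passed the filters, with medians of 3540.5 and 3684 UMIs per cell. They had 103 barcodes in common, 26 of them among kept cells. Il34 itself gave 580 and 631 UMIs over all barcodes, 6.64 and 6.61 CPM, so its level did not part the libraries. A 3′ tag outside the removed stretch checks nothing, and the genotype labels could not be checked. Cell classes, each written with "-like", come from clusters and marker genes. There were 1828 and 1725 endothelial-like cells, 189 and 353 mural-like, 912 and 1288 fibroblast-like, 749 and 1032 microglia-like, and 1935 and 1899 BAM-like cells. Astrocyte-like cells, at 16 and 15, were too few to describe although astrocytes were sorted.

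The stretches of DNA before the start sites of 4 members show the kinds of element known from such genes. Fos and Dusp1 are shown for the cyclic AMP response element (CRE), which CREB and ATF factors bind, and Hspa1a and Hspa1b for the heat shock element and because the pair is nearly identical. Each run is the 250 bases before the RefSeq start in GRCm38.p6, written 5′ to 3′ on the gene's strand. Capitals mark the core TGACGT or the full CRE TGACGTCA in Fos and Dusp1, and the heat shock unit GAANNTTC in the other two.
Fos, chr12:85473640-85473889, plus strand: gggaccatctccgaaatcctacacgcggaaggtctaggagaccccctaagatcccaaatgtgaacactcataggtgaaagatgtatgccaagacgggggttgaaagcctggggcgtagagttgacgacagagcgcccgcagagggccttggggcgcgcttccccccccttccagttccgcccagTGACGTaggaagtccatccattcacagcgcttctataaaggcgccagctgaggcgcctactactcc
Dusp1, chr17:26508473-26508722, minus strand: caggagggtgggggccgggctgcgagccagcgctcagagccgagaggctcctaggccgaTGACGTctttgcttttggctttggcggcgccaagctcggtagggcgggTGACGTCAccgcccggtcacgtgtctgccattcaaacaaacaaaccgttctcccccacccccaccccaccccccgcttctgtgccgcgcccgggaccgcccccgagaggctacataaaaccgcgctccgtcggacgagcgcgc
Hspa1a, chr17:34972157-34972406, minus strand: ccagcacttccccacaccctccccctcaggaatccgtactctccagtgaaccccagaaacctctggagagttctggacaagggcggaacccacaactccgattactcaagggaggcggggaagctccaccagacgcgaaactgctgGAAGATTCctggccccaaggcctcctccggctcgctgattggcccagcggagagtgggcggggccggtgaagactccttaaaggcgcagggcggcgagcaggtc
Hspa1b, chr17:34959239-34959488, minus strand: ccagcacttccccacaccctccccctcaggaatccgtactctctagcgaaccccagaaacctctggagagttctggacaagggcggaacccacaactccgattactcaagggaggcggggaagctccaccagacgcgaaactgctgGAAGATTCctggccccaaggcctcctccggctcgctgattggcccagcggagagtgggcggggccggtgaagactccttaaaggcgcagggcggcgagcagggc

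The core in the Fos run begins 66 bases before the start site. In Dusp1 a core begins 191 and the full element 143 bases before the start, and both heat shock genes have the unit 104 bases before it. The Hspa1a and Hspa1b runs carry the same base at 247 of 250 positions. Of the 44 members, 37 matched a RefSeq promoter window of 250 bases before and 50 after the start, and 32817 such windows stood for all genes. On both strands, the core TGACGT was present in 8 of the 37 members (21.6%; Atf3, Btg1, Btg2, Ccn1, Dusp1, Fos, Nr4a3 and Ppp1r15a) and in 7.51% of all windows. The full element TGACGTCA, which contains the core, was in 3 members (8.11%; Btg2, Dusp1 and Ppp1r15a) and in 1.79% of all windows. The heat shock unit GAANNTTC was in 5 members (13.5%; Fosl2, Hspa1a, Hspa1b, Hspb1 and Jun) against 7.86% of windows. The AP-1 site TGANTCA was in 0 members against 7.81%, and the CArG box bound by SRF in 1 member (2.70%; Zfp36) against 1.63%. These are matches of letters in a short window, the short forms were searched after the longer ones, and they describe neither binding nor a cause.

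By GENCODE vM21 on GRCm38 the 44 genes are protein coding and lie on 18 chromosomes. Csrnp1 overlaps Cx3cr1, a microglial receptor gene, on the same strand, so Csrnp1 counts are uncertain. Hspa1a (chromosome 17, 34969190 to 34972156, minus strand) and Hspa1b (chromosome 17, 34956436 to 34959238, minus strand) are near-identical copies, but of 510 windows of 91 bases in the last 600 bases of the Hspa1a transcript 0 were found in that of Hspa1b. Fos lies at chromosome 12, 85473890 to 85477273, Jun at chromosome 4, 95049034 to 95052222, Nr4a1 at chromosome 15, 101254269 to 101274795, Klf2 at chromosome 8, 72319033 to 72321656, and Atf3 at chromosome 1, 191170296 to 191218039.

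The members together made up the largest share of RNA in BAM-like cells. Their summed level there was 31684 and 27813 CPM, followed by microglia-like cells at 19007 and 17974. Fibroblast-like cells stood at 15398 and 12103, endothelial-like cells at 14919 and 11887 and mural-like cells at 12160.4 and 5836. Neutrophil-like cells (11395 and 11924) lay near these, and oligodendrocyte-like (5706 and 6622), ependymal-like (4201 and 3818), neuron-like (2795 and 2959) and choroid plexus epithelial-like cells (1367 and 1864) lay lower. In all 5 sorted classes described here the homozygous library was lower. The ratio of the sums was 0.480 (0.462 to 0.498) in mural-like, 0.786 (0.779 to 0.793) in fibroblast-like, 0.797 (0.788 to 0.806) in endothelial-like, 0.878 (0.873 to 0.883) in BAM-like and 0.946 (0.934 to 0.957) in microglia-like cells. Without the 31 and 37 mural-like cells that hold endothelial markers, described further on, the mural-like ratio was 0.943. In choroid plexus epithelial-like cells it was 1.36 (1.33 to 1.39). In such sums, fewer responding cells and fewer transcripts per cell cannot be told apart.

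**Figure D1:**
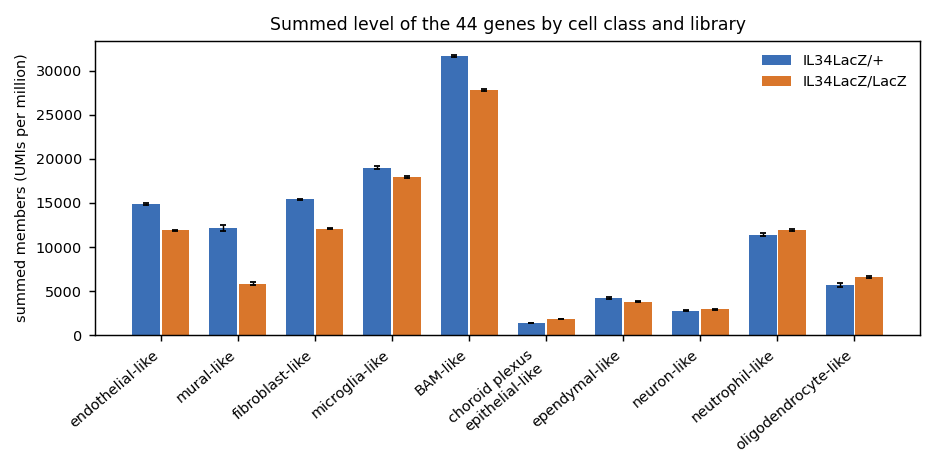
Summed level of the 44 genes, in CPM, in each cell class (bars: IL34LacZ/+ and IL34LacZ/LacZ library, 1 library each; error bars: exact 95% Poisson intervals, counting error only). BAM-like cells are the highest class in both libraries, at 31684 and 27813, and mural-like cells stand at 12160.4 and 5836, a ratio of 0.480 that is 0.943 without the cells holding endothelial markers.

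Gene by gene, more members were called lower than higher in endothelial-like and fibroblast-like cells, and in mural-like cells chiefly with the cells that hold endothelial markers. In endothelial-like cells 42 members were measured, 0 called higher and 11 lower, where 1.56% of all 8821 measured genes were higher and 0.986% lower. In fibroblast-like cells 42 were measured, 0 higher and 11 lower, where 2.07% of 10174 genes were higher and 1.01% lower. In mural-like cells 29 were measured, 1 higher and 17 lower, where 6.42% of 2914 genes were higher and 5.25% lower. Without the mural-like cells holding endothelial markers, 17 were measured, 1 called higher and 3 lower, with a median ratio of 1.03. Of the 17 called lower over all mural-like cells, 9 were then still measured and 3 of these, Fos, Junb and Dusp1, still called, and the other 8 fell under 100 UMIs. Of those 8, Zfp36 then had a ratio of 1.52 and the others 0.463 to 0.785, each with an interval that included 1. Fos, Junb and Dusp1 then lay under 20% of their BAM-like levels in both libraries, the limit below which free RNA could give the counts. Whether it did was not tested. In BAM-like cells all 44 were measured, 0 higher and 1 lower, where 2.19% of 9503 genes were higher and 1.03% lower, so the share lower, 1 of 44, was near the background. In microglia-like cells 31 were measured with 0 called in either direction, where 2.01% of 6813 genes were higher and 0.837% lower.

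The median ratio of the measured members was 0.758 in endothelial-like, 0.503 in mural-like, 0.813 in fibroblast-like, 0.901 in BAM-like and 0.972 in microglia-like cells. Over all measured genes the medians were 1.01, 1.05, 1.01, 1.02 and 1 in the same order. A member measured only through the library in which it is high had to differ, so these counts describe the measured members and not the full list. Endothelial-like and fibroblast-like cells had 3 lower members in common (27.3% of each list), Btg2, Nr4a1 and Nr4a2. Over all genes these classes had 8 lower calls in common, 9.20% of 87 and 7.77% of 103. Endothelial-like and mural-like cells had 6 members in common (54.5% and 35.3%), Atf3, Btg2, Dusp1, Egr1, Jun and Junb, beside 8 over all genes (9.20% of 87 and 5.23% of 153). Of these 6, Junb and Dusp1 stayed called in mural-like cells without those holding endothelial markers, at levels that free RNA could give. Btg2, an antiproliferative gene, was lower in all 3 classes, but its mural-like ratio without those cells was 1.26 (0.815 to 2.004).

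**Figure D2:**
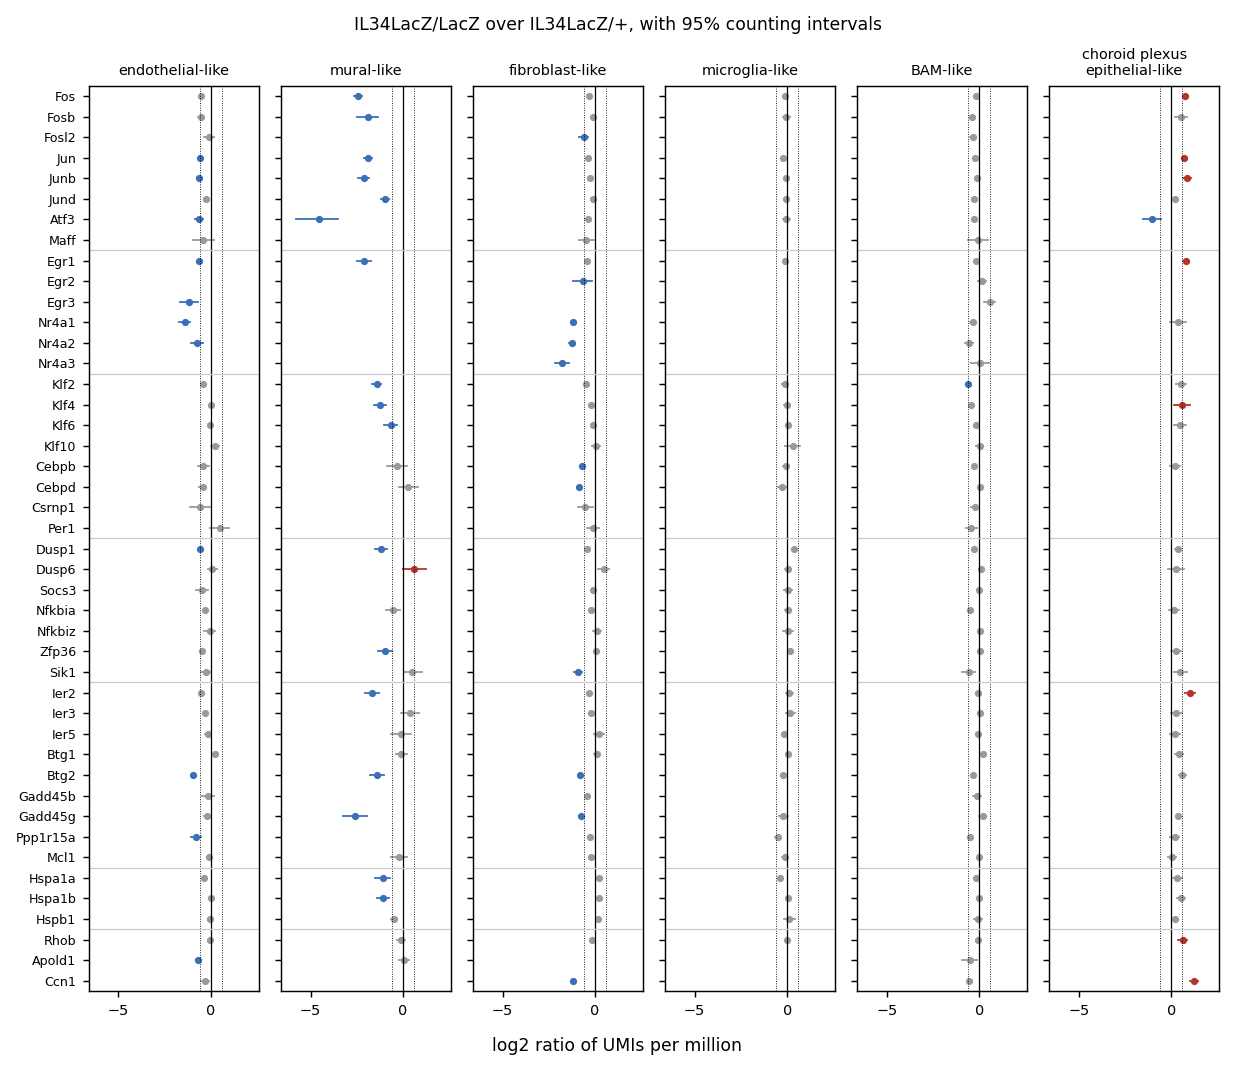
log2 ratio of each gene, IL34LacZ/LacZ over IL34LacZ/+ (points; lines: exact 95% counting intervals), in 6 cell classes, for genes with at least 100 UMIs over both libraries in the class; dotted lines mark 1.5-fold, blue is called lower and red called higher. The 11 endothelial-like, 17 mural-like and 11 fibroblast-like genes called lower lie to the left, microglia-like cells have 0 called, and choroid plexus epithelial-like cells have 8 to the right and 1 to the left.

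AP-1 is a dimer of FOS and JUN proteins. Fos, its inducible part, stood at 4795 and 4179 CPM in BAM-like cells, 2637 and 2107 in fibroblast-like, 1229.6 and 1136 in microglia-like, 755 and 527 in endothelial-like and 1389 and 255 in mural-like cells. The homozygous library was lower in each, but only the mural-like difference was called, at a ratio of 0.184 (0.157 to 0.214). Over all endothelial-like cells the level lies under 20% of that in BAM-like cells, the limit below which free RNA could give the counts. It is not read as expression there. In their cluster high in venous markers, described further on, the Fos level lay above that limit in both libraries. The 12 BAM markers summed to 176 and 267 CPM in endothelial-like and to 15358 and 14318 in BAM-like cells. The part of free RNA in the Fos counts was not tested. Jun, whose protein pairs with FOS, stood at 4760.2 and 4081 in BAM-like cells, close to Fos, and was the highest member of microglia-like cells at 3312 and 2853. It was called lower in endothelial-like cells, at 1533 and 1008 (0.658, 0.634 to 0.682), and in mural-like cells, at 1105 and 301 (0.272, 0.234 to 0.316), a call that ended without the cells holding endothelial markers, at 0.721 (0.539 to 0.969). In fibroblast-like cells Jun stood at 1897 and 1452 (0.765, 0.746 to 0.785) and was not called.

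Junb, a JUN relative that can restrain AP-1, was called in the same classes as Jun. It stood at 537 and 341 (0.635, 0.596 to 0.676) in endothelial-like and 669 and 154 (0.230, 0.187 to 0.282) in mural-like cells. In fibroblast-like (628 and 516), microglia-like (1040.4 and 995) and BAM-like cells (1407 and 1315) its ratio lay between 0.823 and 0.956. Jund, a JUN protein present in many resting cells, was among the 3 highest members of both macrophage classes, at 2304 and 1899.5 in BAM-like and 1857 and 1762 in microglia-like cells. It was called lower only in mural-like cells, at 812 and 412 (0.508, 0.440 to 0.586), and not without the cells holding endothelial markers, at 0.721 (0.589 to 0.885). Fosb, another FOS protein, was called lower among the 5 sorted classes only in mural-like cells, at 180.0 and 48.2 (0.268, 0.181 to 0.390). It was highest in BAM-like cells, at 816 and 626. Outside the 5, Fosb and Junb were also called lower in ependymal-like cells, where 84 of 6506 genes were. Fosl2, a FOS relative, was called lower only in fibroblast-like cells, at 44.8 and 29.3 (0.654, 0.549 to 0.780), and averaged over clusters its log2 ratio there was 0.0378.

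Atf3, a stress-induced factor of the ATF family, stood at 914 and 745 in BAM-like cells, 4.25-fold and 3.87-fold above the next class. In endothelial-like cells it was called lower at 94.5 and 61.3 (0.649, 0.557 to 0.754), a level under the free-RNA limit. In mural-like cells it stood at 215 and 9.18 (0.0427, 0.0180 to 0.0871), with 24.5% and 37.5% of its UMIs in 1 cell. Maff, a small MAF protein, was highest in fibroblast-like cells, at 15.9 and 11.5, and was called in none of the 5 sorted classes.

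The EGR zinc-finger factors and the NR4A orphan nuclear receptors had the lowest median ratio of the role groups in endothelial-like (0.514) and fibroblast-like cells (0.444). In endothelial-like cells 4 of 4 measured were called lower, beside 0.986% of all genes, and the 4 include Egr3, which lay under the free-RNA limit. In fibroblast-like cells 4 of 5 were, beside 1.01%. Egr1 was highest in fibroblast-like cells, at 1058 and 784, with BAM-like (859 and 769.9) and microglia-like cells (808 and 751) next, none of them called. It was called lower in endothelial-like cells, at 316 and 202 (0.640, 0.589 to 0.695), and in mural-like cells, at 432 and 99.9 (0.231, 0.178 to 0.297). Egr2, a relative, was called lower in fibroblast-like cells, at 10.8 and 6.74 (0.625, 0.432 to 0.905), with 11.7% of its homozygous UMIs in 1 cell. Egr3 was called lower in endothelial-like cells, at 26.4 and 11.7 (0.445, 0.318 to 0.616), a level under the free-RNA limit, with 20.9% and 11.1% of its UMIs in 1 cell. Neuron-like cells were its highest class, at 149 and 157, 5.64-fold and 6.23-fold above the next.

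Nr4a1, a receptor gene switched on by many stimuli, stood at 177 and 78.5 (0.444, 0.403 to 0.490) in fibroblast-like cells and at 76.5 and 28.7 (0.375, 0.305 to 0.459) in endothelial-like cells. Nr4a2 stood at 166 and 68.6 (0.415, 0.374 to 0.459) in fibroblast-like and at 46.8 and 27.8 (0.594, 0.475 to 0.741) in endothelial-like cells. Nr4a3 stood at 35.9 and 10.4 (0.291, 0.225 to 0.373) in fibroblast-like cells. Each NR4A gene measured in these 2 classes was thus called lower in the homozygous library. In BAM-like cells Nr4a1 stood at 91.3 and 72.5, Nr4a2 at 49.3 and 33.9 and Nr4a3 at 7.68 and 7.89, none called, and in microglia-like and mural-like cells none of the 3 reached 100 UMIs.

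Klf2, which blood flow induces in endothelium, was the only member called in BAM-like cells. It stood there at 1151 and 750.0 (0.652, 0.632 to 0.672), a call that held in 13 alternative settings and ended in 4. In endothelial-like cells, its highest class, it stood at 2078 and 1527 (0.735, 0.713 to 0.758), and in fibroblast-like cells at 1094 and 773 (0.706, 0.682 to 0.730), both below 1 and short of 1.5-fold. In mural-like cells it was called lower, at 861 and 319 (0.371, 0.318 to 0.432). Klf4, a related factor, stood at 758 and 769.7 (1.02, 0.970 to 1.06) in endothelial-like cells and was called lower in mural-like cells, at 350.1 and 148 (0.423, 0.335 to 0.533). Klf6, another KLF factor, stood at 282 and 177 (0.628, 0.497 to 0.793) in mural-like cells, under the free-RNA limit set by BAM-like cells (1518 and 1365), and at a ratio of 1.35 (0.892 to 2.08) without the cells holding endothelial markers.

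C/EBP factors drive inflammatory and acute-phase genes, and both were called lower in fibroblast-like cells and in no other of the 5 classes. Cebpb stood at 252 and 154 (0.610, 0.566 to 0.657) and Cebpd at 403 and 221 (0.549, 0.517 to 0.583). Klf10, a growth-factor-responsive KLF gene, was highest in endothelial-like cells, at 59.5 and 69.7, and Csrnp1 in BAM-like cells, at 41.4 and 35.1, and neither was called in any of the 5. Per1, a clock gene, stood at 132 and 134 in neuron-like cells, 4.67-fold and 6.16-fold above the next class, and at most at 28.2 in the 5 sorted classes, called in none.

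Of the 7 feedback regulators, 1 was called lower in endothelial-like, 1 in fibroblast-like and 2 in mural-like cells. Dusp1, the phosphatase that inactivates MAP kinases, was lower in endothelial-like cells, at 494 and 325 (0.659, 0.618 to 0.704), and in mural-like cells, at 403 and 176 (0.436, 0.351 to 0.540). In BAM-like cells, its highest class, it stood at 1479 and 1199 (0.811, 0.790 to 0.832), and in microglia-like cells the homozygous library was the higher, at 264 and 343 (1.30, 1.18 to 1.44), short of 1.5-fold. Dusp6, an ERK-specific phosphatase, was the only member called higher in any of the 5 sorted classes, in mural-like cells at 64.5 and 97.6 (1.51, 1.0005 to 2.33). That call ended at a minimum of 500 UMIs per cell, with doublets kept, under TMM and DESeq2 scaling and with totals taken without choroid plexus, erythroid and mitochondrial genes, where the log2 ratio was 0.39 to 0.56 against 0.5963. The log2 ratio was larger in others, at 0.78 without the top cell, 0.93 with the members variable or at Leiden resolution 2 and 0.96 with equal weight. Without the cells holding endothelial markers Dusp6 stood at 54.0 and 109 (2.03, 1.17 to 3.74). On 16 and 70 UMIs it was then no longer measured. Zfp36, which destabilises cytokine messenger RNA, stood at 260.1 and 131 (0.503, 0.388 to 0.651) in mural-like cells, under the free-RNA limit set by BAM-like cells (1693 and 1768). Without the cells holding endothelial markers it was on the other side of 1, at 74.2 and 112.5 (1.52, 0.929 to 2.57). With 22 and 72 UMIs it was then no longer measured. Sik1, a kinase induced by cyclic AMP, was lower in fibroblast-like cells, at 67.4 and 35.8 (0.532, 0.457 to 0.618), and was highest in mural-like cells, at 99.8 and 142 (1.43, 1.02 to 2.02), not called. Socs3, Nfkbia and Nfkbiz, which restrain or tune cytokine and NF-kB signalling, were called in none of the 5 classes, with Nfkbia highest in endothelial-like cells, at 675 and 541.

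Among the early-response and growth-arrest genes, Btg2 stood at 349.8 and 182 (0.520, 0.478 to 0.565) in endothelial-like, 366 and 205 (0.561, 0.527 to 0.598) in fibroblast-like and 336 and 127 (0.379, 0.296 to 0.484) in mural-like cells. Without the mural-like cells holding endothelial markers it stood at 97.8 and 123 (1.26, 0.815 to 2.004), on the other side of 1. BAM-like (1248 and 1003) and microglia-like cells (1117 and 957) held more of it, and it was not called there. Gadd45g, a stress sensor of MAP kinase signalling, stood at 394 and 231 (0.587, 0.553 to 0.624) in fibroblast-like and 186 and 31.0 (0.167, 0.105 to 0.258) in mural-like cells. Its relative Gadd45b stood at 222 and 163 in fibroblast-like cells, 3.33-fold and 3.61-fold above the next class, and was not called.

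Ppp1r15a, which restores translation after stress, was lower in endothelial-like cells, at 63.8 and 36.9 (0.579, 0.477 to 0.7001). Ier2, an early-response gene, was lower in mural-like cells, at 319 and 99.9 (0.313, 0.239 to 0.409). Ier3, Ier5, Btg1 and the survival gene Mcl1 were called in none of the 5 classes. Ier5 and Btg1 were highest in microglia-like cells, at 596 and 523 and 775 and 798, and Ier3 and Mcl1 in BAM-like cells, at 389.9 and 395 and 390.2 and 384.

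Of the 3 heat shock genes, Hspa1a and Hspa1b were called among the 5 sorted classes, in mural-like cells only. Outside these classes, Hspb1 was called higher in neuron-like cells, where 262 of 8015 genes were. Hspa1a and Hspa1b were called higher in oligodendrocyte-like cells, where 52 of 3090 genes were. Hspb1, a small heat shock protein, stood at 1887 and 1844 (0.977, 0.948 to 1.01) in endothelial-like cells, the second highest member in the heterozygous and the highest in the homozygous library, and was among the 3 highest of mural-like cells, at 1103 and 792 (0.718, 0.642 to 0.804), not called. The HSP70 gene Hspa1a was lower in mural-like cells, at 235 and 110.2 (0.470, 0.355 to 0.619), and so was its copy Hspa1b, at 329 and 155 (0.472, 0.373 to 0.595). Neither was called without the cells holding endothelial markers, where Hspa1a stood at 105 and 108 (1.03, 0.666 to 1.63) and Hspa1b at 169 and 142 (0.843, 0.591 to 1.22). In endothelial-like cells Hspa1a stood at 323 and 245 (0.759, 0.703 to 0.820) and Hspa1b at 351 and 356 (1.01, 0.946 to 1.08). Microglia-like cells held much of both, Hspa1b at 1251 and 1297 and Hspa1a at 818 and 624, and in fibroblast-like cells the ratio of all 3 lay above 1, with a median of 1.14.

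Of the last 3 genes, Ccn1, a secreted matrix protein, was lower in fibroblast-like cells, at 327 and 145 (0.443, 0.412 to 0.476). Apold1, an endothelial early-response gene, was lower in endothelial-like cells, at 250.4 and 157 (0.625, 0.570 to 0.686), and stood at 344 and 355 (1.03, 0.854 to 1.25) in mural-like cells. Rhob, a small GTPase gene, was among the 3 highest members of microglia-like cells, at 1434 and 1426, and its ratio lay between 0.877 and 0.995 in all 5 classes.

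The class with the highest level was mostly the same in both libraries. This held for 38 of the 44 genes, with BAM-like cells highest for 19, endothelial-like for 5 (Hspb1, Klf2, Klf4, Klf10 and Nfkbia), microglia-like for 5 (Ier5, Hspa1b, Btg1, Socs3 and Rhob), fibroblast-like for 5 (Egr1, Nr4a2, Gadd45b, Gadd45g and Maff), mural-like for 2 (Sik1 and Apold1) and neuron-like for 2 (Egr3 and Per1). The highest class differed for the other 6, Fosl2, Nr4a1, Nr4a3, Cebpd, Ppp1r15a and Ccn1. Many of these leads are narrow. Dusp6 was 1.01-fold and 1.04-fold higher in its first than in its second class, and Egr1 1.23-fold and 1.02-fold. Egr3, Per1, Atf3 and Gadd45b were the genes at least 3-fold above the second class in both libraries.

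**Figure D3:**
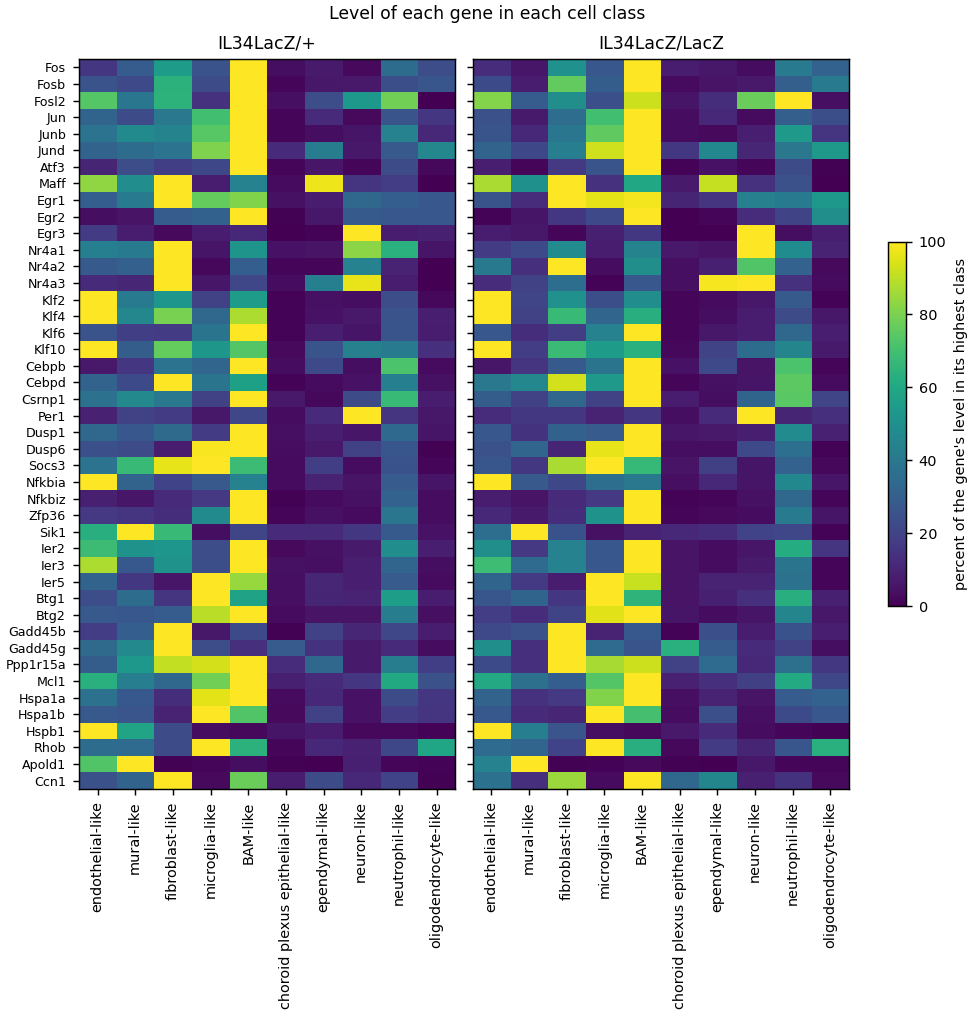
Level of each gene in each cell class as a percent of its level in its highest class, for the IL34LacZ/+ and the IL34LacZ/LacZ library (colour scale, 0 to 100%). The BAM-like column holds the highest level for 19 of the 44 genes in both libraries, and Egr3 and Per1 stand out in the neuron-like column.

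Within endothelial-like cells the clusters with at least 50 cells in each library differed in level and in ratio. A smaller cluster, of 15 and 33 cells, is not described. The largest cluster, high in capillary markers, held summed levels of 10823 and 9320.3 CPM (ratio 0.861, 0.844 to 0.878) with 3 of 33 measured members called lower, where 1% of 6100 genes were. A cluster high in venous markers, with Vwf among its leading genes (176 and 195 cells), stood at 22569.5 and 14925 (0.661, 0.646 to 0.677), the highest level in the heterozygous library. There 17 of 31 measured members were lower and 0 higher, where 2.12% of 2930 genes were lower and 2.05% higher. Ppp1r15a stood at 130.1 and 39.1 (0.3002, 0.196 to 0.449) in that cluster, Apold1 at 313 and 105 (0.336, 0.261 to 0.431) and Btg2 at 546 and 231 (0.423, 0.355 to 0.502). Fos, not called over all endothelial-like cells, stood at 1636 and 970.4 (0.593, 0.543 to 0.648) there, and Jun at 2846 and 1524 (0.536, 0.4997 to 0.574). The cluster with arterial and capillary markers, the highest in the homozygous library, stood at 17400.3 and 15329 (0.881, 0.862 to 0.8999), with 2 of 35 members lower and 1.13% of 3898 genes. The one led by Plvap, a gene of fenestrated vessels, stood at 15162.5 and 11815 (0.779, 0.754 to 0.805), with 8 of 24 lower and 3.3% of 2214 genes. The remaining cluster, also high in capillary markers, stood at 12556 and 9836 (0.783, 0.743 to 0.826), with 7 of 15 lower and 3.53% of 822 genes. Whether these ratios differ between clusters was not tested.

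Fibroblast-like clusters with at least 50 cells in each library differed in level. A smaller cluster led by Ifit1 and Cxcl10, of 25 and 74 cells, is not described. The cluster led by Apod and Slc7a11 was low in both libraries, at 3359 and 2983 (0.888, 0.836 to 0.943), and those led by Col1a2 and by Dcn were higher, at 17314 and 13959.5 (0.806) and 14459 and 11549 (0.799). The low cluster made up 21.7% of heterozygous and 27.4% of homozygous fibroblast-like cells, and averaged over clusters 4 members were lower in the class and 0 higher. Of the BAM-like clusters, the Lyve1-high cluster stood at 36362 and 33849.5 (0.931, 0.925 to 0.937). The MHC class II cluster stood at 25814 and 20895 (0.809, 0.8001 to 0.819) and another at 20072 and 18399 (0.917, 0.899 to 0.935). A smaller BAM-like cluster, of 20 and 36 cells, is not described. In the MHC class II cluster 8 of 40 measured members were lower and 1 higher, where 1.56% of 5844 genes were lower and 3.1% higher. Klf2 stood at 1121 and 659 (0.588, 0.553 to 0.625) there, Klf4 at 399 and 242 (0.607, 0.549 to 0.672) and Nr4a2 at 41.7 and 22.2 (0.532, 0.37995 to 0.742), and Egr3 was the higher one, at 19.6 and 30.2 (1.54, 1.05 to 2.31), a level under the free-RNA limit set by neuron-like cells (149 and 157). This cluster made up 18.6% and 26.0% of BAM-like cells.

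The mural-like difference rested on few cells. In the heterozygous library 9 of 189 mural-like cells held 50% of the 6217 member UMIs, against 45 of 353 cells for the 5083 member UMIs of the homozygous library. Of the 18 members called in mural-like cells, 16 had at least 10% of their UMIs in 1 cell of a library. Cells with at least 10 endothelial-marker UMIs numbered 31 and 37 (16.4% and 10.5%) and held 75.7% and 39.5% of the member UMIs. They were deeper, with medians of 6024 and 4923 UMIs against 1605.5 and 1800.5 in the other mural-like cells, and had median doublet scores of 0.161 and 0.154 against 0.0123 and 0.0109.

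Without those cells the summed members of mural-like cells stood at 5089.7 and 4802 CPM, a ratio of 0.943. Of 17 members measured then, Fos (368 and 152, ratio 0.412, 0.310 to 0.547), Junb (186 and 116, ratio 0.623, 0.434 to 0.9003) and Dusp1 (179 and 114, ratio 0.638, 0.442 to 0.927) were called lower. Each of them then lay under the free-RNA limit set by BAM-like cells in both libraries and is not read as expression. The BAM-like levels were 4795 and 4179 for Fos, 1407 and 1315 for Junb and 1479 and 1199 for Dusp1. Apold1 was called higher, where 3.51% of 1940 genes were lower and 3.35% higher. The median ratio of the 17 members was then 1.03, beside 1.02 over all genes. It is not over the same genes as the median of 0.503 over all mural-like cells, which covers 29 members. Over all mural-like cells the 10 endothelial markers, all detected, summed to 5303 and 3712 CPM, the 8 choroid plexus markers to 25848 and 7575 and the 5 erythroid markers to 6564 and 652. The 12 BAM markers summed to 141 and 176 there, against 15358 and 14318 in BAM-like cells. The part of free RNA in the Fos, Junb and Dusp1 counts was not tested.

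Choroid plexus markers were also higher in the heterozygous library in the other sorted classes. All 8 were detected, and their sum was 5467 and 2463 CPM for BAM-like, 5015 and 2496 for microglia-like, 6963 and 2591 for fibroblast-like and 6638 and 3871 for endothelial-like cells. With totals taken without choroid plexus, erythroid and mitochondrial genes, the log2 ratio of the summed members was -0.20 for BAM-like, -0.36 for fibroblast-like and -0.33 for endothelial-like cells. The median mitochondrial share was 5.05% and 4.45% for BAM-like, 7.29% and 6.98% for fibroblast-like and 5.02% and 5.08% for endothelial-like cells, and their part in the result was not tested. At least 10% of UMIs lay in 1 cell for 2 of 11 called endothelial-like members (Egr3 and Atf3) and 1 of 11 fibroblast-like ones (Egr2).

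Per cell, the members' share of UMIs was spread widely. Cells were thinned to 1000 UMIs each so that depth did not set the counts. The median cell then held 23 and 20 member UMIs in BAM-like, 15 and 14 in microglia-like, 10 and 8 in endothelial-like, 8 and 6 in fibroblast-like and 4 and 4 in mural-like cells. In fibroblast-like cells the quartiles ran from 3 to 19 in the heterozygous and from 3 to 14 in the homozygous library, so the lower quartiles were equal and the upper ones were not. The top 10% of mural-like cells held 46.9% and 26.8% of the member UMIs.

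**Figure D4:**
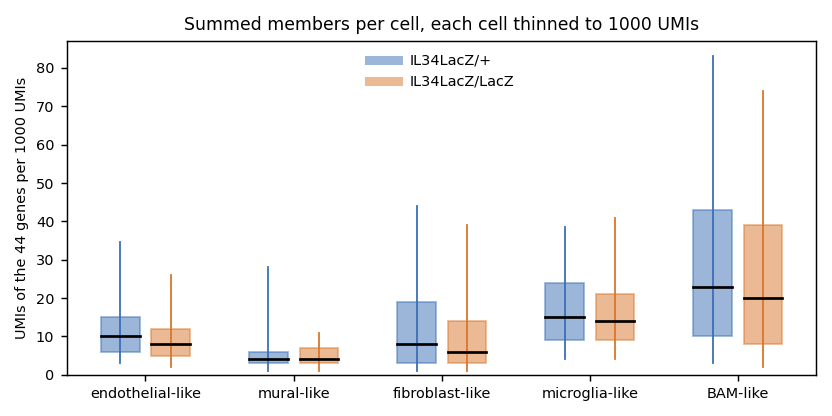
UMIs of the 44 genes per cell after each cell was thinned to 1000 UMIs, by class and library (box: quartiles, line: median, whiskers: 5th to 95th percentile of cells). BAM-like cells have medians of 23 and 20, and mural-like cells have the same median of 4 in both libraries with a longer upper whisker in IL34LacZ/+.

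The share of cells with at least 1 Fos UMI after thinning was 77.5% and 69.7% in BAM-like, 52.0% and 46.3% in fibroblast-like, 46.6% and 42.4% in microglia-like, 20.02% and 17.6% in endothelial-like and 15.9% and 12.5% in mural-like cells. Without thinning the share was 87.9% and 82.9% for BAM-like, 69.4% and 65.8% for fibroblast-like, 67.8% and 65.5% for microglia-like, 31.7% and 28.3% for endothelial-like and 25.9% and 21.2% for mural-like cells. The homozygous library was lower in each class by both measures. Median depths ran from 1717 UMIs in heterozygous mural-like to 5662.5 in homozygous fibroblast-like cells. For comparison, the thinned share was 12.6% (9.49 to 16.3) and 12.1% (9.89 to 14.5) in neuron-like cells, with medians of 2325 and 2534 UMIs. In choroid plexus epithelial-like cells it was 8.54% (6.76 to 10.6) and 12.2% (9.33 to 15.5), with medians of 13925 and 14205.5 UMIs (exact binomial intervals, counting error only). Fos made by neuron-like cells was not told apart from free RNA, and choroid plexus epithelial-like cells were much deeper. Neither share therefore measures the free RNA of mural-like cells. The mural-like shares, at 15.9% (10.97 to 21.9) and 12.5% (9.20 to 16.4), overlap those of neuron-like cells and are not read as expression or as a difference. In endothelial-like cells the share lies above that of both comparison classes, but the Fos level over the whole class is under the free-RNA limit.

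Cells with a Fos UMI also held more of many other members, in both libraries. Of the members with at least 50 UMIs in each library after thinning, 32 of 37 in BAM-like, 29 of 31 in fibroblast-like, 23 of 33 in endothelial-like and 20 of 28 in microglia-like cells were higher in cells with a Fos UMI, with an interval above 1 in both libraries. Of all genes at that depth, 3.32%, 11.8%, 2.56% and 1.42% were so. In BAM-like cells Atf3 stood at 1132 CPM in cells with and 68.8 in cells without a Fos UMI in the heterozygous library, and at 995 and 90.4 in the homozygous library, 16.4-fold and 11.0-fold higher. Dusp1 was 10.3-fold and 10.4-fold higher and Nr4a2 12.4-fold and 10.3-fold, the latter on 2 and 3 UMIs in cells without Fos. Cells with Fos were deeper before thinning, with medians of 3776 against 2690.5 and 4368.5 against 3202 UMIs in BAM-like cells and 6566.5 against 4123.5 and 7191 against 4103.5 in fibroblast-like cells, and the part of depth was not tested. Median doublet scores were 0.0435 against 0.0326 and 0.0360 against 0.0327 in BAM-like and 0.0590 against 0.0526 and 0.0571 against 0.0396 in fibroblast-like cells.

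In endothelial-like cells a Fos UMI is not read as expression of Fos, since its level over the whole class lies under the free-RNA limit. Only their cluster high in venous markers was seen above that limit in both libraries, and it was not parted on its own. Over all endothelial-like cells Fosb was 13.05-fold and 11.1-fold higher in cells with Fos, Egr1 7.31-fold and 7.78-fold and Junb 6.59-fold and 6.04-fold. The 12 BAM markers summed to 197 CPM in those with and 195 in those without a Fos UMI in the heterozygous and to 396 and 274 in the homozygous library, with 11, 12, 12 and 12 of them detected, and their part in the result was not tested. In fibroblast-like cells the median member was 4.59-fold and 4.41-fold higher, with Atf3 at 106-fold and 18.7-fold on 1 and 8 UMIs in cells without Fos, Socs3 at 26.9-fold and 13.6-fold on 3 and 9 UMIs in cells without Fos, and Fosb at 8.92-fold and 12.2-fold. In microglia-like cells the median was 1.65-fold and 1.67-fold, with Atf3 at 4.63-fold and 2.79-fold and Fosb at 3.91-fold and 3.35-fold. Genes that went little with Fos were Mcl1 (1.18-fold and 0.753-fold) and Ier5 (1.08-fold and 0.949-fold) in endothelial-like, Btg1 (1.24-fold and 1.15-fold) in fibroblast-like and Cebpd (0.709-fold and 1.11-fold) in microglia-like cells. In mural-like cells, where the homozygous Fos level is also under that limit, 5 members could be measured, and Jun alone was higher in both libraries, at 16.4-fold and 4.95-fold. The median doublet score there was 0.103 in the 30 heterozygous cells with a Fos UMI against 0.0137 in those without. In the homozygous library it was 0.0116 against 0.0114, and the part of doublets was not tested.

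**Figure D5:**
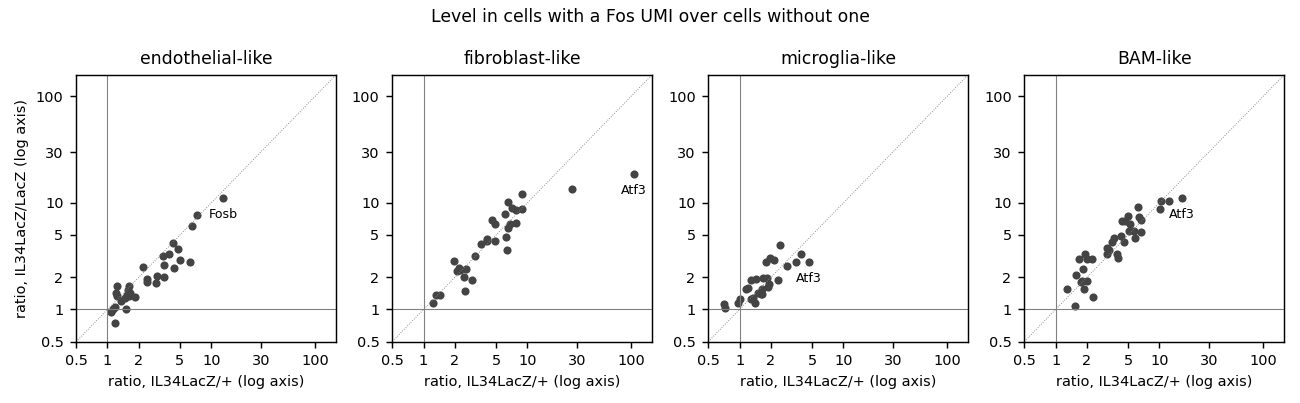
Level of each gene in cells with a Fos UMI over cells without one, IL34LacZ/+ library on the x axis and IL34LacZ/LacZ library on the y axis (log axes; dotted line: equal ratios; points: members with at least 50 UMIs in each library after thinning to 1000 UMIs per cell; the gene with the highest IL34LacZ/+ ratio is named). Most genes lie above 1 in both libraries, with BAM-like Atf3 at 16.4 and 11.01, and fibroblast-like Atf3 farthest right on 1 UMI in IL34LacZ/+ cells without Fos.

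Other genes of the same pathways were not called in endothelial-like, fibroblast-like, microglia-like or BAM-like cells. Of 16 further immediate-early genes, with Id1, Plk2 and Crem the highest in endothelial-like cells, 8 were measured in endothelial-like, 9 in fibroblast-like, 4 in microglia-like and 10 in BAM-like cells, and 0 were called in any of these, with median ratios of 0.956, 0.942, 1.01 and 1.03. Upstream kinases and factors, such as Mef2c and Elk3, had 15, 15, 14 and 15 of 16 measured with 0 called, and 11 other chaperones, such as Hsp90ab1 and Hspa8, were all measured in each with 0 called. Genes of the integrated stress and unfolded protein response (5, 5, 4 and 4 measured) and of the NF-kB pathway (9, 7, 9 and 11 measured) also had 0 called. In mural-like cells 5 of 23 measured were called, 2 higher and 3 lower, beside 6.42% and 5.25% of all genes. Id1 was lower (539.9 and 288 CPM), as were the kinase gene Map2k2 (113 and 63.1) and the small heat shock gene Cryab (272 and 173), and the NF-kB genes Rela (58.7 and 94.1) and Nfkb1 (66.5 and 106) were higher, of 4, 6, 9 and 2 measured in their lists. These values include the mural-like cells holding endothelial markers, which held 42.0% and 26.5% of all mural-like UMIs. Whether the calls stay without those cells was not tested.

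Choroid plexus epithelial-like cells, 867 and 460 in number and not among the sorted populations, had more members higher than lower. Of 30 measured, 8 were called higher and 1 lower, where 3.52% of 8782 genes were higher and 0.273% lower, and 29 of the 30 had a ratio above 1, with a median of 1.32 beside 1.06 over all genes. Fos stood at 185 and 313 (1.69, 1.59 to 1.79), Ccn1 at 24.5 and 56.6 (2.31, 1.998 to 2.68) and Junb at 24.2 and 43.5 (1.80, 1.54 to 2.10). Ier2, Jun, Egr1, Klf4 and Rhob were the others that were higher, and Atf3 was lower, at 12.4 and 6.02 (0.487, 0.341 to 0.683). Of the 9 called members, 8 lay under 20% of the level in their highest class in both libraries and are not read as expression here. The 11 microglial markers, all detected, summed to 218 and 333 CPM in these cells and the 12 BAM markers, all detected, to 40.2 and 58.8, and their part in the result was not tested. At a mitochondrial limit of 5% the median log2 ratio was 0.07, against 0.40 at the limit of 10%, with 4 members higher.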

How the data were processed

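RNA of single cells from 2 libraries was used, 1 per genotype. The deposited matrices give whole UMI counts for each gene in each barcode, and the file headers name Cell Ranger 5.0.0. The submitters' processing notes name GRCm38.p6 and mm10. Neither the annotation nor the rule that kept barcodes is stated in the sources used here, and the lowest deposited total was 500 UMIs. The other deposited tables hold gene and barcode names.

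Cells with at least 1000 UMIs, 500 genes and at most 10% mitochondrial UMIs were kept. Scrublet, run per library through scanpy 1.11.5 at an expected rate of 10%, called 1106 (6.44%) and 1218 (6.46%) barcodes doublets, which were removed. Clustering used 2000 variable genes without the 44 members, 30 principal components, 20 neighbours and Leiden resolution 1 (leidenalg 0.10.2, seed 1). Of 33 clusters, 3 stayed unnamed (9.76% and 10.9% of cells). A name needed a mean log2 enrichment of its markers of at least 1, 3 markers up and a lead of 0.75 over the next class, thresholds set after the clusters were seen. A difference from other accounts of these cells may come from these rebuilt names.

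Counts were summed per class and library and scaled to CPM, with exact Poisson intervals, and ratios have exact conditional binomial intervals (Python 3.11.15, scipy 1.17.1, numpy 2.4.6, pandas 2.3.3, matplotlib 3.10.9). A class needed 50 cells in each library. Thinning drew 1000 UMIs per cell. edgeR 4.0.16 and DESeq2 1.42.0 under R 4.3.3 gave only alternative scaling factors. The ratio script was tested on simulated data. Genes named in full are those called in any of the 5 sorted classes, the 3 of highest CPM in each, and those at least 3-fold above their second class in both libraries. Members further named in clusters, in choroid plexus epithelial-like cells and in the parting by Fos were chosen after their values were seen. The members and lists were chosen with earlier results of these data known, so no count over them is independent support. The alternatives without mural-like cells holding endothelial markers, and with totals without choroid plexus, erythroid and mitochondrial genes, were added after seeing the data.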

Additional observations from a re-analysis of the deposited data

Results flagged for a closer look

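Of the 44 genes, 7 were called in opposite directions in choroid plexus epithelial-like cells, where the homozygous library was higher, and in a sorted class, where it was lower. Each genotype has 1 library, so the difference between classes was not tested. Given as the log2 ratio in choroid plexus epithelial-like cells minus that in the other class, the gap was 3.2017 for Fos, 2.57 for Jun, 2.97 for Junb, 2.93 for Egr1, 2.68 for Ier2 and 1.84 for Klf4 against mural-like cells. Against endothelial-like cells it was 1.2988 for Jun, 1.5025 for Junb and 1.46 for Egr1, and against fibroblast-like cells it was 2.38 for Ccn1. The mural-like values rest on few cells. Without the cells that hold endothelial markers, Fos and Junb were the genes among these called lower there, both under the free-RNA limit. In choroid plexus epithelial-like cells all of these genes but Ccn1 lay under 20% of the level in their highest class in both libraries. Opposite calls in further classes were not counted. In oligodendrocyte-like cells Zfp36, Ier2, Hspa1a and Hspa1b, lower in mural-like cells, were called higher, where 52 of 3090 genes were.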

How the results depend on the processing

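No paired analysis was possible because each genotype has 1 library. Of the 41 member calls in the 5 sorted classes, 37 kept their direction and 15 stayed called in each of 18 settings where the member was measured. A setting in which a member fell under the UMI limit was not counted for it, so calls lost that way are left out. Of the 15, 8 were mural-like, but without the cells holding endothelial markers only 3 of the 17 lower mural-like calls remained. At a mitochondrial limit of 5% mural-like cells gave no value (under 50 cells in a library), and averaging over clusters gave none for mural-like and microglia-like cells, which form 1 main cluster each. Scaling factors moved the median of all genes by less than 0.1 on the log2 scale. The cause of a change was not tested unless the setting itself removes cells. Depth limits the count of measured members, 29 of 44 in mural-like and 31 of 44 in microglia-like cells.

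Without mural-like cells holding endothelial markers, the mural-like median log2 ratio was 0.0442. It covers 17 members and not the 29 measured over all mural-like cells, so no reversal is read from the medians. Hspa1a at 0.0442, Btg2 at 0.34 and Klf6 at 0.43 were reversed, the sum was -0.0841 and 3 members were lower. Averaged over clusters, Fosl2 in fibroblast-like cells reversed to 0.0378. The microglia-like median log2 ratio reversed to 0.0041 at a minimum of 500 UMIs, 0.028 at a mitochondrial limit of 5% and 0.0224 with the members among the variable genes.

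In endothelial-like cells 5 members were lower with equal weight per cell, 7 after thinning and 2 at a fold of 2. The log2 ratio of the sum there was -0.35 at 2000 UMIs, -0.35 and -0.31 at mitochondrial limits of 5% and 20%, -0.29 with doublets kept, -0.36 with the members variable, -0.37 at Leiden resolution 2, -0.26 with equal weight and -0.27 after thinning. In mural-like cells 0 members were higher, Dusp6 included, at 500 UMIs, with doublets kept, under TMM, DESeq2 or the reduced total, after thinning and at a fold of 2. There were 2 higher at a mitochondrial limit of 20% or without the top cell, and 4 with the members variable or at resolution 2. The lower members numbered 11 with doublets kept or equal weight, 10 with the members variable or at resolution 2, and 3 after thinning. The mural-like sum was -0.9955 at 500 UMIs, -1.33 at 2000, -0.99 at 20% mitochondrial, -0.55 with doublets kept, -0.45 with the members variable or at resolution 2, -0.55 with equal weight and -0.56 after thinning.

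In fibroblast-like cells the median was -0.5021 at 5% mitochondrial, 1 member was higher at that limit, with doublets kept and after thinning, and 4 were lower averaged over clusters or at a fold of 2. The sum was -0.37 at 2000 UMIs, -0.47 at 5% mitochondrial, -0.41 with doublets kept and -0.44 at resolution 0.5. The microglia-like sum was -0.0283 and -0.0581 at 5% and 20% mitochondrial, -0.0478 with the members variable and -0.0618 at resolution 0.5. In BAM-like cells 1 member was higher with equal weight or averaged over clusters. The lower members numbered 4 at 500 or 2000 UMIs and after thinning, 3 at 5% mitochondrial and under TMM or DESeq2, 2 with doublets kept, the members variable, resolution 0.5, the reduced total, equal weight or without the top cell, and 0 at a fold of 2. The BAM-like sum was -0.20 and -0.0784 at 5% and 20% mitochondrial, -0.0851 with doublets kept, -0.20 with the members variable, -0.10 and -0.17 at resolutions 0.5 and 2, -0.20 with the reduced total, -0.16 with equal weight and -0.18 after thinning.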
